A study of Mus musculus with 300 samples.

Results

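Mitosis genes encode the kinases, cyclins, motor proteins and kinetochore parts with which a cell condenses its chromosomes, attaches them to the spindle, separates them and divides. Here 42 such genes were followed across 261 single cells of the embryonic mouse thymus. All 42 listed genes were among the 13737 features of the matrix, so none was lost to a filter. They were grouped by role into 8 entry genes (kinases, cyclins and the transcription factor gene Mybl2), 3 genes of the chromosomal passenger complex and 8 spindle checkpoint and kinetochore genes. The other roles were 6 genes of anaphase control, 5 kinesins, 7 spindle assembly genes, 2 cytokinesis genes and 3 genes of chromosome structure.

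By their label the cells were early thymic progenitors, which seed the thymus and can still give rise to T cells and other lymphoid cells. All were taken at embryonic day 15.5. They came from 5x polychromILC mice, a strain whose cells all carry the same set of fluorescent reporter alleles, and there was no treatment and no second genotype. The labels give 4 mouse ids (1A with 67 cells, 1B with 69, 2A with 64 and 2B with 61), spread over 4 plates and 2 sequencing pools. The labels do not say whether a mouse id is 1 embryo, nor which gate was used for sorting. Of the progenitor markers, Kit, the stem cell factor receptor, reached the level defined below in 213 of 261 cells and Cd34 in 194. Notch1, the receptor that starts T-cell development, reached it in 243 cells, whereas Bcl11b, which seals T-cell commitment, reached it in 21 and Cd3e, part of the T-cell receptor complex, in 9. Other members of both lists ran the other way. Of the T-lineage genes, the kinase Lck reached the level in 231 cells, the receptor constant regions Trbc1 and Trbc2 in 215 and 232, Cd27 in 204 and Lat in 201. Of the progenitor genes, Flt3 reached it in 100 cells, Lmo2 in 75 and Hoxa9 in 61. By a rule given below, 79 of the 261 cells carried dendritic, macrophage, mast cell and basophil or innate lymphoid and NK markers.

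In a dividing cell, transcription of these genes climbs late in the cell cycle. In mammals it is held back at other times through a short promoter element, the cell cycle genes homology region, while the factor NF-Y activates these promoters at nearby CCAAT boxes. Cyclin A2 and the B cyclins activate Cdk1, the kinase that drives entry into mitosis, and the anaphase-promoting complex with its activator Cdc20 ends mitosis by destroying them. The thymic progenitor is a stage at which cells are known to proliferate.

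The deposited values are on a log2-type scale with a lowest value per gene that differs between 4 sets of cells, as a batch correction leaves it, and here each gene's level was counted from the value it had in cells without reads. A gene was called "at the level" in a cell when it stood 3.46 or more above that on the log2 scale, a linear level of 10. The mitosis program was called on in a cell with at least 50% of the 42 genes at the level, that is, at least 21 genes. Since the genes themselves set this class, differences of the 42 genes between the classes are descriptions and carry no test. The matrix does not state whether values are per transcript length, so an order of shares between genes holds for this scale only.

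The program was on in 145 of 261 cells (55.6%, exact 95% Clopper-Pearson interval 49.3 to 61.7%). By mouse it was on in 30 of 67 cells of 1A (44.8%, 32.6 to 57.4%), 38 of 69 of 1B (55.1%, 42.6 to 67.1%), 39 of 64 of 2A (60.9%, 47.9 to 72.9%) and 38 of 61 of 2B (62.3%, 49 to 74.4%). The mean over mice was 55.8% ± 7.97 (SD, n = 4), and the intervals of all 4 mice overlapped. These intervals cover counting error only. Mouse 1A had 6 of 15 cells on in plate AF1 (40%) and 24 of 52 in plate AF2 (46.2%). Mouse 2B differed more between its plates, with 26 of 36 cells on plate JW7 (72.2%) and 12 of 25 on plate JW8 (48%). On the plates that held cells of 2 mice, 1A was below 1B on AF1 (55.1% of 69 cells) and below 2A on AF2 (18 of 29 cells, 62.1%), and 2B was above 2A on JW7 (21 of 35 cells, 60%). A shared plate did not hold the set of cells fixed on AF1 and AF2. Mouse 1A had 61 cells in set 3 of the 4 sets, 1B had 64 in set 1, and 2A had 35 in set 2, 26 in set 4 and 3 in set 3. By set the program was on in 55.4% (set 1), 65.8% (set 2), 44.8% (set 3) and 55.4% (set 4) of cells. With each mouse as a single value and mice tied to plates, no test between mice was made.

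The number of mitosis genes at the level spread over the whole range. It was 0 in 11 cells and all 42 in 8 cells, under 10% of the genes in 42 cells and at least 90% in 50 cells. Another 31 cells lay between 40 and 60%, near the threshold. The lowest cell called on had 21 genes at the level and the highest cell called off had 20. The class is a threshold on a count of genes and not a cell type. With 33% or 67% of the genes as the threshold, the mean share on was 64.5% and 38.9%.

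**Figure D1:**
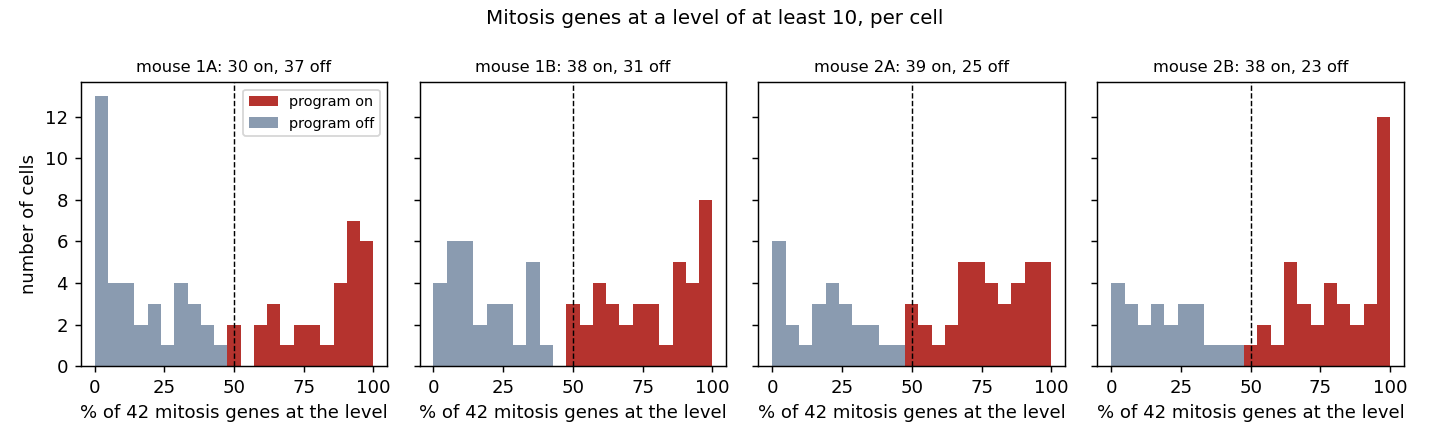
Histograms of cells by the percentage of the 42 mitosis genes at a level of at least 10 (x axis, percent; y axis, number of cells), 1 panel per mouse, with program-on cells in red and program-off cells in grey and a dashed line at 50%. Cells fill the whole axis in all 4 mice, with 30, 38, 39 and 38 cells to the right of the line in 1A, 1B, 2A and 2B.

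Cells with the program on had more detected genes. The median was 8094.5 detected genes in program-on cells and 7056 in program-off cells of mouse 1A, 7958.5 and 7070 in 1B, 7860 and 7592 in 2A, and 8425 and 7763 in 2B, on and off in that order. For this reason the rank of a cell by detected genes was a covariate of the rho values and fits below, unless stated. Correlations between rows that resemble each other are Pearson values without this covariate. What part detection has in the results below, beyond that covariate, was not tested.

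The entry genes were on in most program-on cells. Ccna2, cyclin A2 (chromosome 3, 36564865-36572150, GRCm38), was at the level in 96.7%, 97.4%, 97.4% and 97.4% of program-on cells (mouse order 1A, 1B, 2A, 2B), against 27%, 19.4%, 32% and 30.4% of program-off cells. Its log2 level had a lowest, median and highest value of 0.89, 9.21 and 12.25 over program-on cells and of 0, 1.60 and 10.29 over program-off cells. Ccna2 was the only one of the 42 genes that was above its level at no reads in every program-on cell: the other 41 were at 0 in at least 1 of them. Ccnb1, cyclin B1, was at the level in 86.7%, 92.1%, 89.7% and 89.5% of program-on cells, against 21.6%, 16.1%, 16% and 13% of program-off cells. The 4 mice lay close together for both cyclins, and the shares of the classes did not overlap.

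Ccnb2, cyclin B2 (chromosome 9, 70407692-70421547), separated the classes less. It was at the level in 76.7%, 65.8%, 89.7% and 84.2% of program-on cells, against 37.8%, 41.9%, 32% and 43.5% of program-off cells. The mean of 38.8% ± 5.13 (SD, n = 4 mice) in program-off cells was among the 3 highest of the 42 genes, after Top2a and Mki67. Plk1, the polo-like kinase of mitotic entry, showed the other pattern, with 83.3%, 65.8%, 76.9% and 78.9% of program-on cells and 10.8%, 0%, 12% and 4.35% of program-off cells. In the 31 program-off cells of 1B the count of 0 for Plk1 allows a share of up to 9.68%, taken as 3 cells of 31, for counting error only. Mybl2 (chromosome 2, 163054687-163084688) encodes B-Myb, a transcription factor active from S phase to mitosis. It was at the level in 80%, 78.9%, 66.7% and 73.7% of program-on cells, against 32.4%, 38.7%, 24% and 26.1% of program-off cells.

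Within the chromosomal passenger complex, which corrects faulty attachments of chromosomes to the spindle, Birc5 (survivin) was at the level in 97.2% ± 3.65 of program-on cells and 24.5% ± 5.82 of program-off cells (SD, n = 4 mice). Cdca8 (borealin) was close to it, with 96.1% ± 4.43 and 26.1% ± 8.99. Aurkb, the kinase of the complex, reached the level in fewer cells of both classes, 87.1% ± 6.90 on and 16.6% ± 8.49 off.

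The checkpoint and kinetochore genes spread widest. Bub1b, a checkpoint kinase-like protein, was at the level in 91.8% ± 4.48 of program-on cells and 29.4% ± 11.7 of program-off cells. Ttk, the kinase at the head of the checkpoint, was at the level in only 49.9% ± 5.20 of program-on cells and 3.57% ± 0.74 of program-off cells, the lowest share in program-on cells among the 42 genes. Cenpa, the histone variant that marks the centromere (chromosome 5, 30666777-30674830), was at the level in 80%, 76.3%, 84.6% and 78.9% of program-on cells, against 32.4%, 48.4%, 32% and 34.8% of program-off cells.

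Among the genes of anaphase control, Espl1, the separase that cuts cohesin, was rarely at the level in program-off cells. It was at the level in 73.3%, 76.3%, 66.7% and 78.9% of program-on cells, against 2.70%, 3.23%, 0% and 4.35% of program-off cells. In the 25 program-off cells of 2A the count of 0 for Espl1 allows a share of up to 12%, by the same reckoning. Cdc20 (chromosome 4, 118432901-118437352) was at the level in 93.3%, 84.2%, 92.3% and 89.5% of program-on cells, against 16.2%, 41.9%, 36% and 26.1% of program-off cells. Cdca5 encodes sororin, which holds sister chromatids together from S phase on (chromosome 19, 6084983-6091777). It was at the level in 83.3%, 86.8%, 69.2% and 86.8% of program-on cells, against 13.5%, 22.6%, 12% and 21.7% of program-off cells.

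The 5 kinesins, motor proteins of the spindle, ranged between 68.7% (Kif20b) and 91% (Kif20a) of program-on cells and between 5.25% (Kif2c) and 25.1% (Kif23) of program-off cells, as means of 4 mice. The 7 spindle assembly genes had the widest spread within a role after the checkpoint genes, with 53.6% (Gtse1) to 93.7% (Tacc3) of program-on cells and 4.73% (Gtse1) to 36.9% (Tacc3) of program-off cells. The cytokinesis genes Anln (anillin) and Ect2 were at the level in 64.5% and 66.9% of program-on cells and 10.4% and 17.5% of program-off cells. Top2a, the topoisomerase that untangles chromosomes, and Mki67, the coat protein of mitotic chromosomes used as a proliferation marker, were at the level in 94.2% ± 5.35 and 94.3% ± 3.71 of program-on cells. They were also the 2 genes most often at the level over all cells (71.8% ± 7.55 and 69.8% ± 10), and reached it in 45.7% ± 16.2 and 39% ± 12.6 of program-off cells. In mouse 2B, Top2a was at the level in 69.6% of program-off cells, against 35.1%, 41.9% and 36% in 1A, 1B and 2A.

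**Figure D2:**
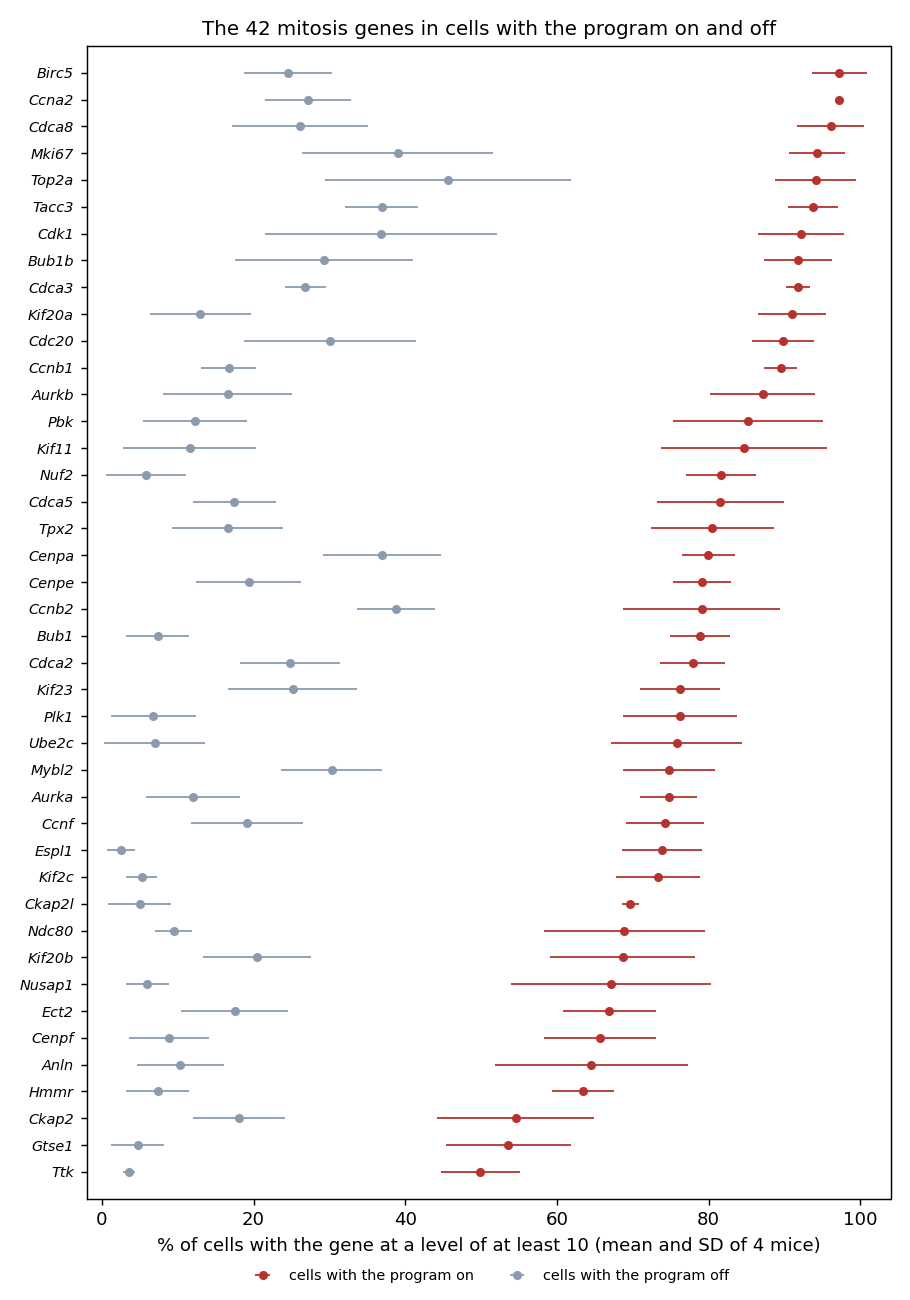
Percentage of cells with each of the 42 mitosis genes at a level of at least 10 (x axis; points and bars are the mean and SD of 4 mice), in cells with the program on (red) and off (grey), ordered by the share in program-on cells. Birc5 leads at 97.2% and Ttk is last at 49.9%; in program-off cells the shares run from 2.57% (Espl1) to 45.7% (Top2a).

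The 42 genes varied together in every mouse. For each of the 861 pairs, Spearman's rho was taken over the cells of each mouse (61 to 69 cells), after the rank of detected genes and the correction set had been taken out, and averaged over 4 mice. A correction set is 1 of 4 groups of cells, recognised in the matrix because its cells share exact values. The median of the pairs was 0.425 over all cells, and by mouse 0.434 (1A), 0.401 (1B), 0.446 (2A) and 0.437 (2B). Of the 861 pairs 853 had a positive mean and 816 were positive in 4 of 4 mice. Pairs within a role had a median of 0.427 (109 pairs) and pairs across roles one of 0.4245. Without the depth covariate the median was 0.507. Many cells of a mouse share a set or a plate, and these values are descriptions without a p.

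The closest pair over all cells was Ccna2 and Birc5, with a rho of 0.770, 0.857, 0.795 and 0.674 in the 4 mice (mean 0.774 ± 0.076). Birc5 and Cdca8, partners in one complex, followed with a mean of 0.720 ± 0.136, then Ccna2 and Cdca8 (0.717 ± 0.077) and Cdk1 and Top2a (0.707 ± 0.032). By their mean rho with the other 41 genes, Ccna2 (0.531), Kif20a (0.528), Kif11 (0.527) and Birc5 (0.526) were the most central. At the other end stood Mybl2 (0.125), Ckap2 (0.242) and Cdca5 (0.266).

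Within the 145 cells with the program on, the co-variation was weaker (median rho 0.303) and took another shape. Selecting these cells by the same genes changes correlations by itself, so the all-cell values are given beside. Ccnb2 and Cenpa had a rho of 0.744, 0.736, 0.806 and 0.883 among program-on cells of the 4 mice (mean 0.792 ± 0.068) and a mean of 0.691 ± 0.129 over all cells. Cenpa and Cdc20 had means of 0.736 ± 0.065 among program-on cells and 0.661 ± 0.058 over all cells. Ube2c, which attaches ubiquitin for the anaphase-promoting complex, paired with Nusap1 (0.685 and 0.630) and with Plk1 (0.674 and 0.648). Among program-off cells the median over all pairs was 0.0855.

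Among program-on cells, which were selected by these same genes, Mybl2 and Cdca5 stood apart from most of the others. Of the 66 pairs with a negative mean rho among program-on cells, 58 held one of these genes. Mybl2 was negative with 35 of its 41 partners and Cdca5 with 23. Cdca5 was positive in 4 of 4 mice with Pbk (0.320 ± 0.045) and with Aurkb (0.212 ± 0.079). Mybl2 and Cenpa had a rho of -0.678, -0.371, -0.422 and -0.563 among program-on cells of the 4 mice (mean -0.508 ± 0.139) and of -0.189, -0.196, -0.078 and -0.149 over all cells (mean -0.153 ± 0.054). The direction of this pair was thus negative in 4 of 4 mice with either set of cells. For Mybl2 and Cdc20 the means were -0.428 ± 0.134 among program-on cells and -0.034 ± 0.069 over all cells, and for Mybl2 and Ccnb1 -0.418 ± 0.212 and 0.041 ± 0.131. Over all cells, where 8 pairs were negative, 7 of them held Mybl2 or Cdca5. The negative values of Cdca5 were mostly confined to program-on cells. Its means there were -0.380 with Ccnb2, -0.308 with Cenpa and -0.232 with Cdc20. Over all cells they were -0.018 ± 0.150, -0.009 ± 0.104 and 0.134 ± 0.060, the last positive in 4 of 4 mice. With each other, Mybl2 and Cdca5 had a positive rho in 4 of 4 mice (0.246 ± 0.157 among program-on cells, 0.360 ± 0.170 over all cells).

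**Figure D3:**
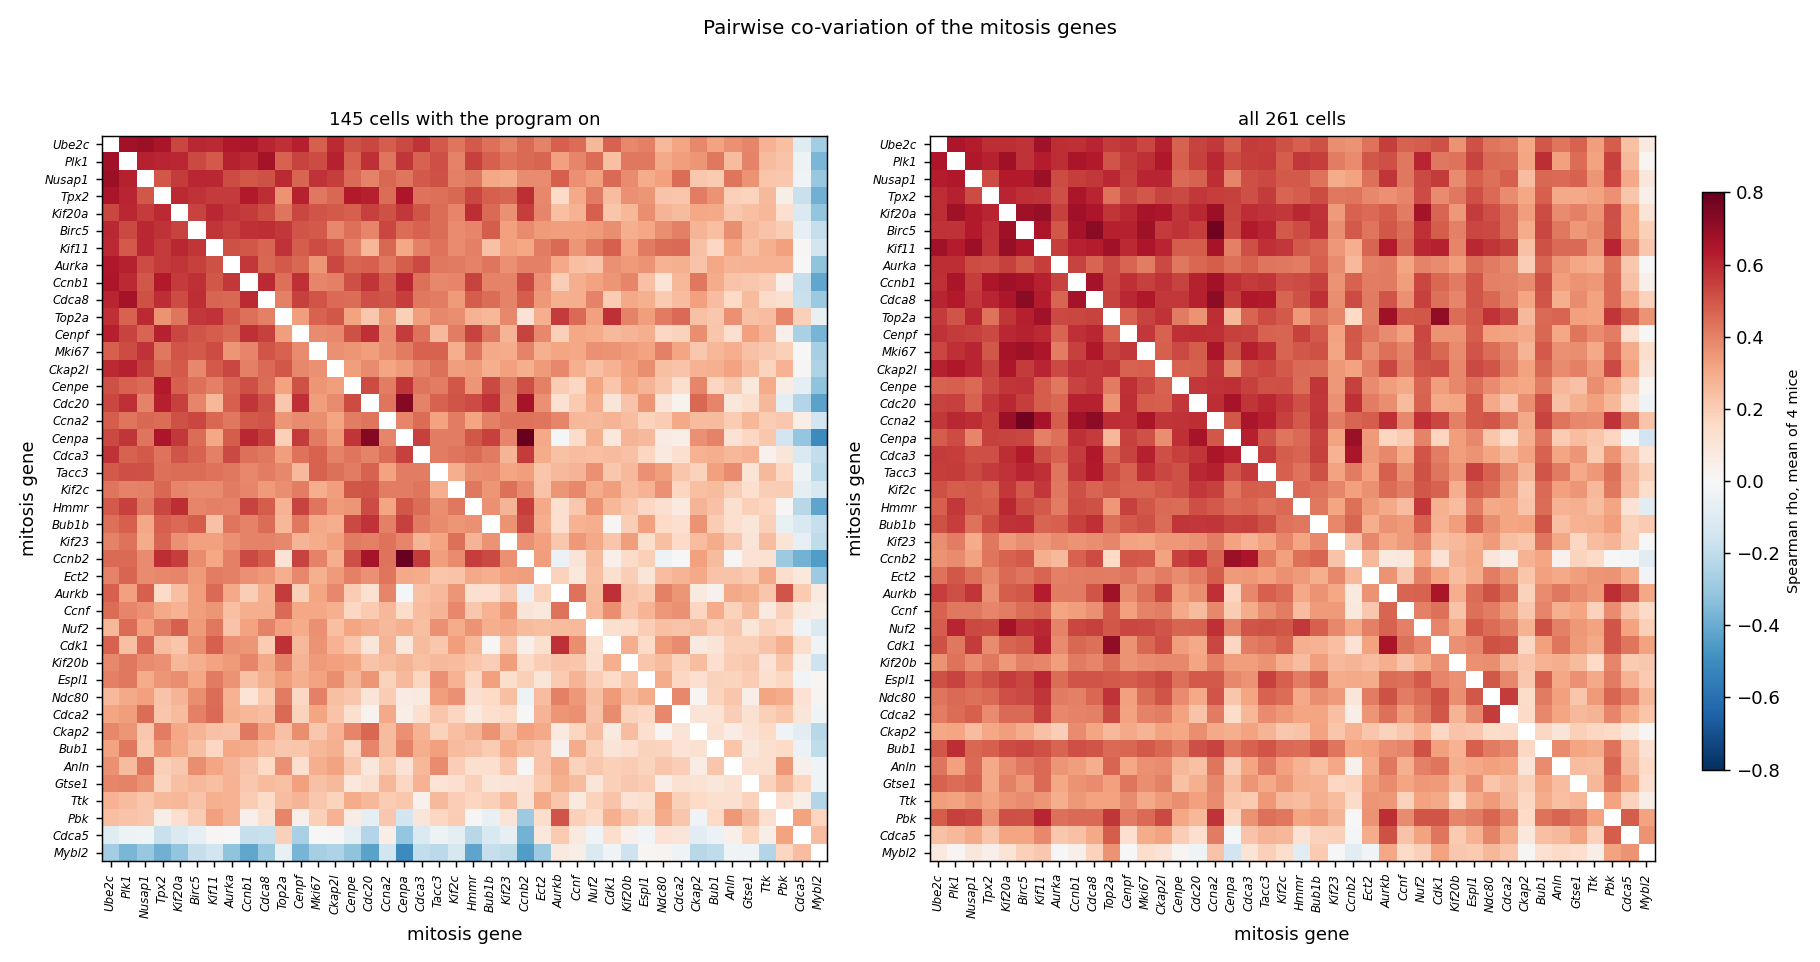
Heat maps of Spearman's rho (colour, mean of 4 mice, blue below 0 and red above) for all pairs of the 42 mitosis genes, in the 145 program-on cells (left) and in all 261 cells (right), both in the order of the mean rho among program-on cells. Mybl2 forms a blue edge in the left panel, with the lowest value of -0.508 for Mybl2 and Cenpa. Cdca5 beside it is mixed, negative with 23 of its 41 partners. The right panel is red nearly throughout, with a median of 0.425.

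Mybl2, Cdca5 and 5 genes that ran against Mybl2 among program-on cells (Cenpa, Ccnb2, Cdc20, Ccnb1 and Plk1) were set against genes of DNA replication. This choice follows the pairs above, so the signs below are not independent of them. Mybl2 had a median rho with the 43 listed S phase genes of 0.304 among program-on cells (42 of 43 positive, highest with Rrm2, a subunit of ribonucleotide reductase) and 0.276 over all cells (43 of 43 positive). For Cdca5 the medians were 0.205 among program-on cells and 0.170 over all cells. Cenpa had a median of -0.366 among program-on cells, with 0 of 43 positive, and -0.128 over all cells, with 5 of 43 positive. Ccnb2 (-0.365 and -0.133) and Cdc20 (-0.341 and -0.083) were close to it. Ccnb1 (-0.292 and -0.021) and Plk1 (-0.291 and -0.058) were nearer to 0 over all cells, with 16 and 15 of 43 positive there. The medians of Mybl2 and Cdca5 were thus above 0 and those of the other 5 genes below 0 with either set of cells. The medians over all cells were smaller in size. The remaining mitosis genes were not set against this list.

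Most cells with the mitosis program on also had S phase genes. With the same rule for the 43 S phase genes (at least 50% at the level), 139 cells had both programs, 6 had mitosis genes without S phase genes, 78 had S phase genes without mitosis genes and 38 had neither. The shares over mice were 53.5% ± 8.60, 2.28% ± 2.02, 29.9% ± 4.16 and 14.4% ± 5.04 (SD, n = 4). Mouse 1A had the most cells with neither (13 of 67, 19.4%), and mouse 2B had the fewest (5 of 61, 8.20%). The rule counts RNA in a cell and gives no cell cycle phase.

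**Figure D4:**
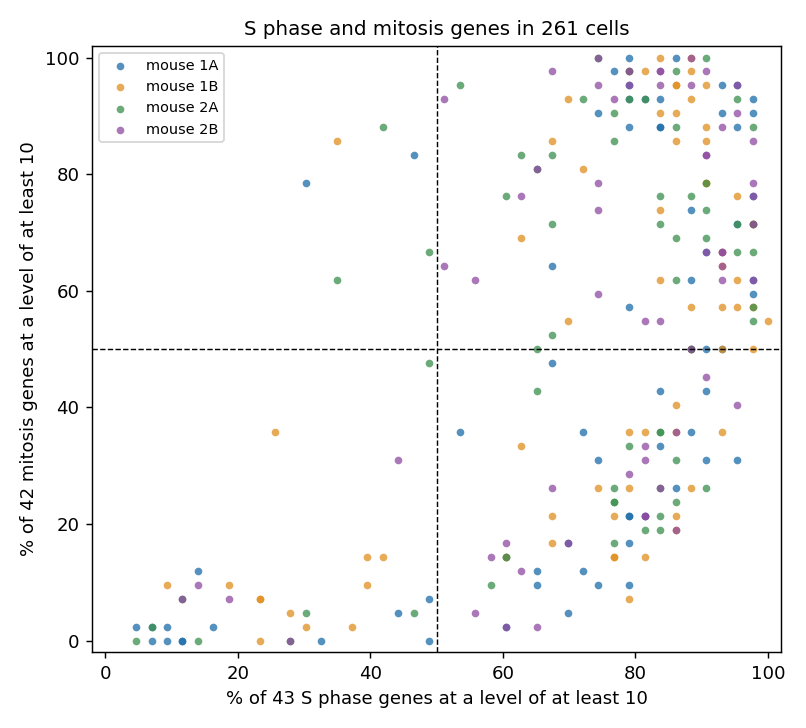
Each point is 1 of 261 cells, by the percentage of the 43 S phase genes (x axis) and of the 42 mitosis genes (y axis) at a level of at least 10, coloured by mouse, with dashed lines at 50%. The upper left field holds 6 cells, the upper right 139, the lower right 78 and the lower left 38.

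The promoters of these genes were read for the elements named above. RefSeq windows (GRCm38.p6, 250 bases before to 50 after the start, 300 bases in all) were found for 36 of the 42 genes, as 38 windows. TTTGAA or TTTAAA, searched on both strands as the core of the cell cycle genes homology region, was present in 33 of the 38 windows (86.8%), against 27.6% of all 32851 windows. CCAAT, on both strands, was present in 28 of 38 (73.7%), against 37.4% of all windows, and both kinds of element in 27 of 38 (71.1%), against 10.7%. In the windows of the S phase list CCAAT was present in 68.6% and TTTGAA or TTTAAA in 25.7%, and in those of the T-lineage list in 13.8% and 20.7%. In the progenitor list it was 36.4% for CCAAT and 40.9% for TTTGAA or TTTAAA, in the further kinetochore genes 68.8% and 40.6%, and in the further spindle and cytokinesis genes 81% and 71.4%. The 5 matched mitosis genes without TTTGAA or TTTAAA in a window were Bub1, Mybl2, Nuf2, Nusap1 and Tacc3. A match is a description of these letters and not a bound site.

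The 150 bases before the RefSeq start are shown for the 3 genes of the 2 closest pairs among program-on cells. They are also shown for Cdca5 and Mybl2, which ran against those 3 genes among program-on cells. They run 5′ to 3′ on the gene's strand, and the capitals mark the elements searched for, where a CCAAT box that lies on the other strand reads as ATTGG. Ccnb2 lies on the minus strand (chr9:70421555-70421704), Cenpa on the plus strand (chr5:30666736-30666885), Cdc20 on the minus strand (chr4:118437344-118437493), Cdca5 on the plus strand (chr19:6084947-6085096) and Mybl2 on the plus strand (chr2:163054485-163054634). For Cenpa, Cdc20 and Cdca5 this start lies inside the gene span given above, which is that of GENCODE.
Ccnb2: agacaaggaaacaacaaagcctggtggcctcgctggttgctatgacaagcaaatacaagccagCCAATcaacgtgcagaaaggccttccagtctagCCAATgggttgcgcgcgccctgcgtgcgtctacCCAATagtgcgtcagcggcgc
Cenpa: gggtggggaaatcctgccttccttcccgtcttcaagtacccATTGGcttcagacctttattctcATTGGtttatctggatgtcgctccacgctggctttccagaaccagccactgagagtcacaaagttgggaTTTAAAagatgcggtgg
Cdc20: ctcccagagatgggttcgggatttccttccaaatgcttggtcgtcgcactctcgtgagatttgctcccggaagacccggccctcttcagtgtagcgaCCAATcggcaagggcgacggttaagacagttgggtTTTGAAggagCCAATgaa
Cdca5: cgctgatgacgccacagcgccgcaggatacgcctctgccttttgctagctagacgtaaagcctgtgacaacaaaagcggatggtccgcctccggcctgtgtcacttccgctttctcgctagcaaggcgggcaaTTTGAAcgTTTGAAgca
Mybl2: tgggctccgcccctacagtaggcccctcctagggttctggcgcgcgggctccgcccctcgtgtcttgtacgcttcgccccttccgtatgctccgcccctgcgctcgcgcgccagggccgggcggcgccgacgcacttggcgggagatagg

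The stretch of Ccnb2 held 3 CCAAT boxes, and its window held 1 further TTTGAA or TTTAAA that ends past the start, outside the stretch shown. Cenpa had 2 CCAAT boxes, both on the other strand, and 1 TTTAAA, with 1 further match of TTTGAA or TTTAAA past the start. Cdc20 had 2 CCAAT boxes, with 1 TTTGAA between them. Cdca5 had 2 copies of TTTGAA close to the start and 0 CCAAT boxes. Mybl2 had 0 matches of either kind, which says only that these letters are not in this stretch.

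The rest of the transcriptome was then compared between cells with the program on and off within each mouse, and the 4 differences of each gene were tested against 0 with limma over 12439 genes, 12397 of them outside the mitosis list. Program-on cells had 153 genes with a higher level and 11 with a lower level at an adjusted p under 0.05 (Benjamini-Hochberg), which is 1.23% and 0.0887% of the 12397 genes, and all 164 had the same sign in 4 of 4 mice. The median difference over the 12397 genes was 0.0012 on the log2 scale. At an unadjusted p under 0.05 there were 1432 genes. Mice 2A and 2B lay mostly in the same 2 correction sets (35 and 36 cells in 1, 26 and 25 in the other) and may not be independent, so these p-values may be too small. With the 4 correction sets in place of mice, 162 genes were higher and 13 lower, of which 135 and 4 were shared with the calls by mouse. Leaving out each mouse gave 61 to 83 higher and 0 to 3 lower genes. No mouse could be left out without the count of higher genes falling by over 1.5 times (83 without 1A, 68 without 1B, 81 without 2A, 61 without 2B).

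Many other genes of the mitotic machinery were higher in program-on cells. Of 19 further spindle and cytokinesis genes 14 were higher and 0 lower, with a median difference of 2.48. Racgap1, the partner of Ect2 in cytokinesis (chromosome 15, 99620496-99651656), had mean log2 levels of 7.19 ± 0.05 in program-on cells and 2.28 ± 0.31 in program-off cells (SD, n = 4 mice). Its differences adjusted for depth and set, for 1A, 1B, 2A and 2B, were 3.80, 4.55, 5.10 and 3.64 (mean 4.27, standard error 0.31, limma adjusted p = 5.8e-04). The kinesins Kif22 (4.43), Kif4 (4.02) and Kif15 (3.71) and the microtubule bundler Prc1 (3.82) were among the 10 largest differences or close to them, with Shcbp1 (4.12) and Pimreg (3.72), which belong to no list. Kif4 was at the level in 70.8% ± 3.82 of program-on cells and 4.85% ± 4.20 of program-off cells.

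Of 32 further kinetochore genes 20 were higher and 0 lower, with a median of 1.84. Spc25, which joins Ndc80 and Nuf2 in the complex that grips microtubules, had differences of 4.91, 5.11, 2.75 and 4.55 (mean 4.33, limma adjusted p = 0.0019), and Mad2l1, the checkpoint protein that binds Cdc20, had 3.25, 4.09, 4.56 and 4.38 (mean 4.07, limma adjusted p = 5.5e-04). Spc24 (3.50), Knl1 (3.64) and Ska1 (3.47) were also higher, and so was Incenp (3.20), the scaffold of the passenger complex. Mis12 and Dsn1, of the Mis12 complex, differed less (1.67 and 1.76). The count of higher genes was 12 without mouse 1A, 11 without 1B, 15 without 2A and 12 without 2B.

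Of 8 condensin genes, which compact chromosomes, 3 were higher: Ncapg (4.52, with 2.88, 5.54, 4.69 and 4.98 in the 4 mice), Smc2 (2.86) and Smc4 (2.27). The median of the 8 was 2.13. Of 9 cohesin genes, which hold sister chromatids together, 0 were past the threshold in either direction, 4 were higher at an unadjusted p under 0.05 and the median was 0.65. The largest difference was that of Rad21 (1.93, limma adjusted p = 0.18), followed by Nipbl (1.01) and Smc3 (0.84). Without the depth covariate 6 of the 9 were called higher, with a median of 1.14. In that setting 2574 of the 12397 genes outside the mitosis list were called higher, with a median of 0.34. With the covariate 1.23% of them were. The anaphase-promoting complex, the ligase that Cdc20 activates, had 0 of 15 genes past the threshold, 4 higher at an unadjusted p under 0.05 and a median of 0.29. Its largest difference was that of Cdc23 (1.71, 3.03, 0.81 and 3.07 in the 4 mice, mean 2.15, limma adjusted p = 0.053), which passed the threshold without mouse 2A, with sets in place of mice, with the stricter detection filter and without the depth covariate. Anapc1 (1.11) and Anapc2 (0.82) followed. Without the depth covariate 8 of the 15 were called higher, with a median of 1.24.

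Among 19 further regulators of mitotic entry and exit, 6 were higher and 0 lower. Foxm1, the transcription factor that drives late cell cycle genes, had mean log2 levels of 4.34 ± 0.59 in program-on cells and 0.75 ± 0.32 in program-off cells, with adjusted differences of 3.33, 4.79, 2.37 and 3.27 (mean 3.44, limma adjusted p = 0.0048). The phosphatases Cdc25b (1.99) and Cdc25c (1.86), which switch Cdk1 on, the kinase Melk (2.96) and the Cdk1-binding proteins Cks1b (2.18) and Cks2 (2.25) made up the other 5. The count of higher genes was 5 without mouse 1A, 3 without 1B, 3 without 2A and 2 without 2B. Of 23 G1 cyclins, cyclin-dependent kinases and inhibitors, 1 was higher: Ccng2, an unconventional cyclin usually linked to cell cycle arrest (2.43, 2.90, 1.65 and 2.02 in the 4 mice, mean 2.25, limma adjusted p = 0.0078). Beside 1.23% higher over the 12397 genes outside the mitosis list, 1 call among 23 says little about this list.

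Of the 43 S phase genes 8 were higher, 1 was lower and the median was 0.60. Among the higher genes were Rrm2 (3.02), Rad51ap1 (2.93), E2f8 (2.77), Brip1 (2.52), Clspn (2.21), Tyms (2.18) and Blm (1.51). Rad51ap1, Brip1 and Blm act in recombinational repair, and Rrm2 and Tyms make nucleotides. Ung, the uracil glycosylase, was lower, with differences of -2.42, -2.43, -2.08 and -1.29 (mean -2.06, limma adjusted p = 0.012) and mean log2 levels of 4.43 ± 0.29 in program-on cells and 5.56 ± 0.37 in program-off cells. The count of higher S phase genes was 2 without mouse 1A, 4 without 1B, 5 without 2A and 4 without 2B. This count was 2 without cells of other types and 34 without the depth covariate, a setting that called 2574 of the 12397 genes higher. With 67% of the genes as threshold it was 2 and the median of the list was -0.27, so the sign of the median depends on the threshold. The call of Ung was unstable too. The count of lower S phase genes was 0 without mouse 1A, without 1B and without 2A. It was also 0 with 33% of the genes as threshold, with any detection and on ranks, and 1 in the other alternatives. Ung was also the gene with the lowest rho with the mean level of the mitosis genes (-0.378 ± 0.067, negative in 4 of 4 mice), and Mcm4, of the replicative helicase, was among the lowest (-0.288 ± 0.057, negative in 4 of 4 mice).

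The other 10 lower genes did not belong to any list, and 9 of them are named here. Cers6, a ceramide synthase, had the largest difference (-1.23, -3.17, -2.46 and -1.83 in the 4 mice, mean -2.17, limma adjusted p = 0.023). Rhbdf2 (-1.93), Snx18 (-1.93), Lrrc41 (-1.87), Leng8 (-1.71), Pnpla7 (-1.46), Trafd1 (-1.39), Csnk1g1 (-1.38) and Stard5 (-1.37) were smaller. These calls were unstable: the count lower was 0 without mouse 1B, 1 without 2A or without 2B and 3 without 1A. For Lrrc41, the mean log2 level was 5.24 ± 0.67 in program-on cells and 5.37 ± 0.54 in program-off cells. Its means thus differed by less than the spread between mice, and the adjusted difference rests on the covariates. The means also differed by less than the larger SD for Trafd1 (4.05 ± 0.67 on, 4.63 ± 0.98 off), Csnk1g1 (3.75 ± 0.15 and 4.13 ± 0.52) and Stard5 (1.96 ± 0.92 and 2.72 ± 0.50). Csnk1g1 was at the level in 57.86% of program-on and 56.85% of program-off cells.

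The genes whose level followed the mitosis genes most closely, by the mean within-mouse rho with the mean level of the 42, were led by a feature with no gene name, ENSMUSG00000111220 (0.801). Its values were within 0.001 of those of Kif11 on the log2 scale in all 261 cells, so it repeats a mitosis gene and adds no evidence; it also headed the list of higher genes (4.94). Hmgb2, a chromatin protein of dividing cells, followed (0.781, 0.785, 0.780 and 0.683 in the 4 mice, mean 0.757 ± 0.050), then Gm4739 (0.751), Kif22 (0.722), Cks2 (0.720), Fam166a (0.717), Cks1b (0.715), the tubulins Tubb5 (0.708) and Tubb4b (0.702), and Spc25 (0.699). The median over 12397 genes was 0.0019 and 62 genes were over 0.5. Fam166a and Tubb4b had a Pearson correlation of 0.907 with each other over the 261 cells, so shared reads cannot be told apart from shared expression there.

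No progenitor gene passed the threshold once depth was a covariate, but few genes did. Of the 12397 genes outside the mitosis list 1.23% were higher and 0.0887% lower, so 0 calls among 21 genes say little about this list. Of 21 tested 0 were higher and 0 lower by limma, 0 had an unadjusted p under 0.05, 6 had a positive mean difference and the median was -0.22. The largest differences were those of Lyl1 (-0.66, -3.46, -0.94 and 1.21 in the 4 mice, mean -0.96, limma adjusted p = 0.62), Mycn (-0.67) and Bcl11a (-0.66). Before that adjustment the list stood higher in program-on cells. Of its genes 69.5% were at the level per program-on cell and 56% per program-off cell. Without the depth covariate 9 of 21 were called higher, with a median of 0.83. In that setting 2574 of the 12397 genes outside the mitosis list were called higher, with a median of 0.34. The median of the progenitor list was also above 0 with 33% as threshold (0.13) and without mouse 1B (0.11). The rho between the 2 percentages within a mouse was 0.243, -0.107, 0.047 and 0.280 (mean 0.116 ± 0.180). Kit was at the level in 83.3%, 89.5%, 82.1% and 94.7% of program-on cells, against 73%, 77.4%, 68% and 78.3% of program-off cells, in 1A, 1B, 2A and 2B.

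No T-lineage gene passed the threshold either, and beside 1.23% higher and 0.0887% lower over the 12397 genes, 0 calls among 28 again say little. Of 28 tested 0 were higher and 0 lower by limma, with 1 higher and 3 lower at an unadjusted p under 0.05, and the median was -0.05. The largest differences were those of Tcf7, a factor of T-cell specification (-2.24, -0.56, -2.43 and 0.52 in the 4 mice, mean -1.18, limma adjusted p = 0.41) and Notch3 (-0.76, -1.15, -1.01 and -1.40, mean -1.08, limma adjusted p = 0.095). Tcf7 differed in sign between mice, and passed the threshold with sets in place of mice. Without the depth covariate 4 of the 28 were called higher, with a median of 0.04. In that setting 2574 of the 12397 genes outside the mitosis list were called higher, with a median of 0.34. Bcl11b was at the level in 21 cells, of which 12 had the program on, and Il2ra in 89, of which 52 did, beside 145 of all 261 cells. The rho of the T-lineage percentage with the mitosis percentage was -0.113, -0.185, -0.060 and 0.311 (mean -0.012 ± 0.221), so mouse 2B stood on the other side of 0 from the other 3.

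Of 24 innate lymphoid and NK genes tested 0 were higher and 0 lower by limma, and 1 and 1 at an unadjusted p under 0.05. Beside 1.23% higher and 0.0887% lower over the 12397 genes, 0 calls among 24 say little. The list had a median of 0.42 that lay below 0 without the cells of other types described next (-0.11), without the first 8 cells of each correction set by well number (-0.01) and without the depth covariate (-0.12). Fcer1g, an adaptor chain of Fc and NK receptors, had differences of -0.41, -1.97, -1.02 and -1.33 (mean -1.18, limma adjusted p = 0.15), and Nkg7 (0.86) and Ikzf3 (0.72) followed. Nkg7 differed in sign between mice (-0.89 in 1A, 0.55 in 1B, 1.3 in 2A and 2.5 in 2B). Ikzf3 had mean log2 levels of 1.08 ± 0.38 in program-on cells and 1.10 ± 0.47 in program-off cells. Its adjusted difference thus rests on the covariates. Zbtb16, the factor of innate-like lymphocytes, was at the level in 50 cells, of which 33 had the program on. Id2 was at the level in 174, of which 103 did, beside 145 of all 261 cells. In mouse 1B Zbtb16 went the other way, with 37.5% of cells at the level on and 57.4% of cells below it. Other genes of the list were lower than all cells: 97 of 199 cells at the level had the program on for Fcer1g, 47 of 95 for Il7r and 38 of 81 for Ctsw. The rho of the innate percentage was -0.260, -0.104, -0.046 and 0.147 (mean -0.066 ± 0.168).

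**Figure D5:**
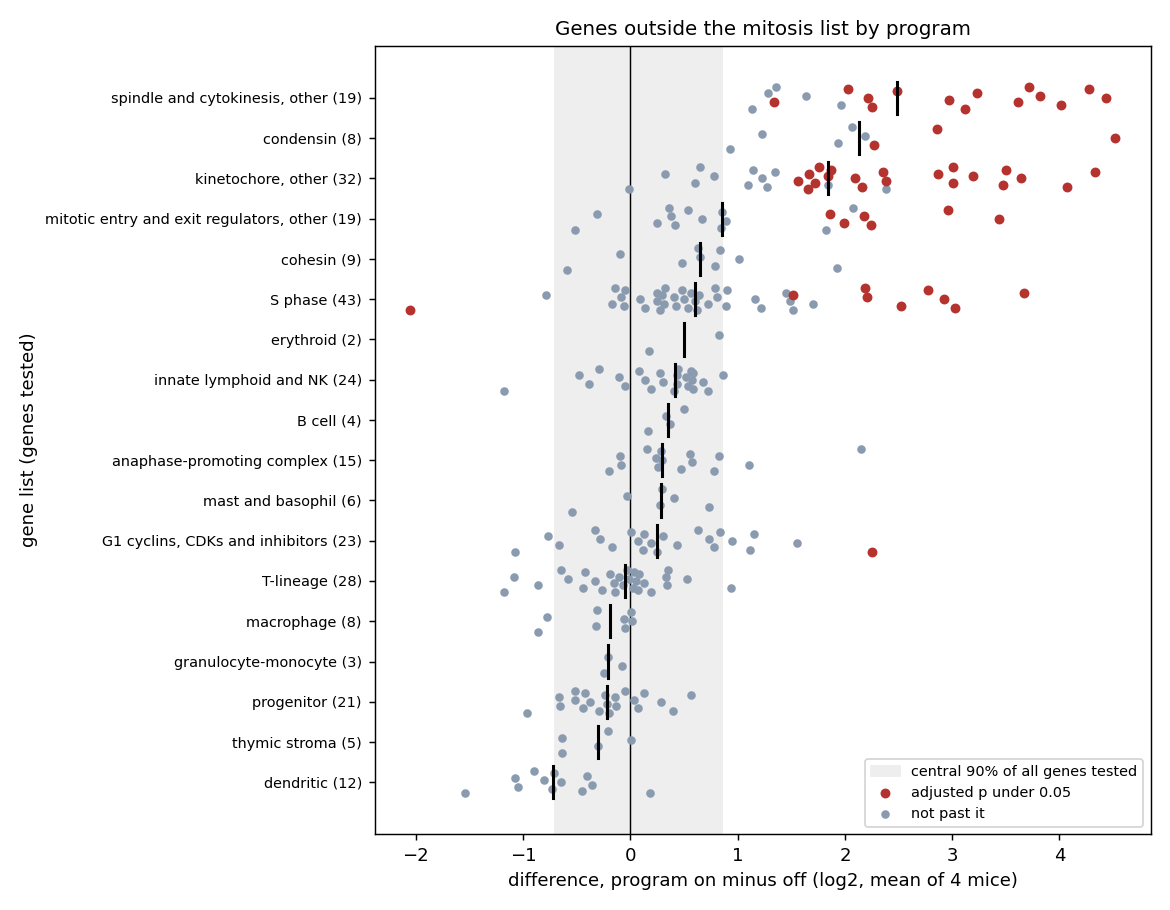
Difference in log2 level between program-on and program-off cells (x axis, on minus off, mean of 4 mice, adjusted for depth and set), 1 point per gene and 1 line per list (y axis, with the number of genes tested), red where the limma adjusted p is under 0.05, with the list's median as a black bar and the central 90% of all genes shaded (-0.70 to 0.85). Spindle, condensin and kinetochore genes lie to the right, with medians of 2.48, 2.13 and 1.84, and the progenitor, T-lineage and innate lists have no red point.

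Some cells carried markers of other types, and in 4 of 4 mice a smaller share of those with dendritic markers had the program on, a difference that was not tested. A cell was counted when at least 40% of a marker list was at the level. With dendritic markers, 13 of 43 cells had the program on (30.2%), against 132 of the 218 other cells (60.6%). By mouse it was 5 of 17 cells in 1A, 1 of 6 in 1B, 4 of 11 in 2A and 3 of 9 in 2B, against 50%, 58.7%, 66% and 67.3% of the other cells. The dendritic list had a median difference of -0.72 with 0 of 12 genes past the threshold and 1 lower at an unadjusted p under 0.05, the largest being Irf8 (-1.54, limma adjusted p = 0.45), Itgax (-1.08) and Pld4 (-1.05). Irf8 had differences of -0.85, 0.67, -1.53 and -4.46 in the 4 mice and Pld4 had 0.38, 0.45, -2.03 and -3.00, so both differed in sign between mice. The median of the list was 0.01 without cells of other types and -0.36 without mouse 2B. Without the depth covariate 9 of the 12 were called lower, with a median of -1.29. In that setting 128 of the 12397 genes outside the mitosis list were called lower, and with the covariate 0.0887% were. The summed level of the 12 genes ran from 2.06 to 7342.9 in program-on cells (median 107.9) and from 0 to 43699.6 in program-off cells (median 245.4). With macrophage markers it was 5 of 12 cells, with mast cell and basophil markers 7 of 13 and with innate lymphoid and NK markers 14 of 26, of which 22 were among the first 8 cells of a set by well number. The summed levels of the 9 macrophage genes ran from 0 to 90066.6 in program-on cells (median 53) and from 0 to 31603.8 in program-off cells (median 118). Of the lists of macrophage (8 tested), mast cell and basophil (6), granulocyte and monocyte (3), B cell (4), erythroid (2) and thymic stroma genes (5), 0 genes passed the limma threshold, and 1 mast cell and 1 erythroid gene were higher at an unadjusted p under 0.05. Without all 79 cells of these kinds, 62.1% of cells had the program on, as the mean of 4 mice, and the fit called 54 genes higher and 4 lower, of which 53 and 2 were among the calls with all cells. What part these cells have in the other results was not tested.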

How the data were processed

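Single-cell libraries of 1 group, labelled as thymic early progenitors of 4 mouse ids, were analysed. The deposited values are on a log2-type scale, read from their range (-4.13 to 15.99), and bear the marks of a batch correction, since each gene has its own lowest value in each of 4 sets of cells. Per the submitters' processing notes, Salmon was run and the genome build was GRCm38. No source used here gives the normalization, the correction tool or read depths. The plan expected TPM or counts, so the log2 form of the written test was used. In the matrix 4 correction sets were recognised by exact shared values (at least 14.2% within a set, 0% between sets). The repeated lowest value of a gene in a set was its level at no reads; 1 of the mitosis genes, Top2a, lacked one in 1 set, where its lowest value was used. Depth was the number of detected genes (median 7782, 5073 to 10337). Index pairs shared by cells of 1 pool numbered 0, and 108 occurred in both pools, as separate libraries.

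Per mouse, each gene's values were regressed on the program (on or off), the rank of detected genes and the set, and the 4 coefficients were tested two-sided with limma 3.58.1 (R 4.3.3), for genes detected in at least 10% of cells; the procedure was tested on simulated data. Nothing says that mouse ids are separate animals, so p-values measure only the spread between them. The named genes were the mitosis genes, the 10 largest differences in each direction with 1 sign in all mice, called members of each list or else up to 3 with the largest difference, the 10 genes most like the mitosis genes, and extreme pairs. Bcl11b, Il2ra, Kit, Zbtb16, Id2, Cd34, Notch1, Cd3e, Lck, Trbc1, Trbc2, Cd27, Lat, Flt3, Lmo2 and Hoxa9 were added as markers. Mcm4, Il7r, Ctsw and features that repeat others were named after their values were seen. The mitosis genes and all lists were chosen with earlier results of these data known. Positions are from GENCODE vM21, promoters from RefSeq. Alternatives were other thresholds, covariates, filters, units, cells, scales and each mouse left out. Some genes that this rule names are not reported here. The 39 labelled cells outside the matrix were not analysed here.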

Additional observations from a re-analysis of the deposited data

Results flagged for a closer look

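Of 127 sets of 4 mouse values checked, 8 had 1 mouse far from the other 3 by Dixon's criterion at the 95% level, where chance gives about 1 in 20. In mouse 1A, Cenpa was at the level in 53.7% of cells (62.3 to 64.1% in 1B, 2A and 2B) and Ccnf, a substrate adaptor of ubiquitin ligases, in 35.8% (53.1 to 55.1%). Both genes were lowest in 1A, as were 31 of the 42 mitosis genes. In the comparison of program-on with program-off cells, mouse 1A also had the smallest differences of Cenpw (1.96, others 2.49 to 2.56), Cdc25c (1.12, others 2.03 to 2.17) and Smc2 (2.42, others 2.97 to 3.07). Mouse 2B had the smallest difference of Knl1 (2.61, others 3.91 to 4.09) and the largest of Kif15 (4.19, others 3.53 to 3.59). Mouse 1B had the largest difference of Melk (4.93, others 2.11 to 2.44). All 6 of these differences were positive in 4 of 4 mice.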

How the results depend on the processing

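Read depth is not given, so detected genes stand in for it, and 4 mouse ids of which 2 share correction sets limit the precision. The mean share of cells with the mitosis program on was 55.8%, 64.5% and 38.9% at thresholds of 50, 33 and 67% of the genes, 78.4% when any detection counted and 34.7% when a level of 100 did; it was 62.1% without cells of other types and 56.2% without the first 8 cells of each set by well number, an alternative chosen after seeing the data. The median rho of the pairs was 0.425, 0.507 without the depth covariate, 0.303 among program-on cells, 0.4035 without cells of other types, and 0.420 to 0.4335 with a mouse left out. Of 153 higher and 11 lower genes, any detection gave 48 and 3, no depth covariate 2574 and 128, with a median over all genes of 0.34, and leaving out cells of other types 54 and 4; a mouse left out gave 61 to 83 and 0 to 3. The count of lower genes was 4 at 67%, 2 on ranks and 6 without those first 8 cells. The cause was not tested. The 65 named genes that were called kept their sign in all 910 combinations of gene and alternative run and fell below the threshold in 258. Among 18 named genes that were not called, 15 of 252 values passed the threshold and 8 changed sign: Lyl1 (0.45), Mycn (1.13) and Ikzf3 (-0.011) without the depth covariate, Mycn at 33% (0.23), Tcf7 (0.20) and Nipbl (-0.067) with any detection, and Nkg7 (-0.10) and Pld4 (0.39) without cells of other types. No paired analysis was possible because the labels give 1 group, so no groups share replicate numbers; program-on and program-off cells were compared within each mouse throughout.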

Other observations

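Groups that were chosen after their values were seen also differed between cells with the mitosis program on and off. Of 45 histone genes of the clustered loci tested, 16 were higher in program-on cells and 0 lower by the limma fit, 44 had a positive difference and the median was 0.84. Hist1h2ap led, with differences of 3.00 (1A), 3.44 (1B), 2.15 (2A) and 3.81 (2B) (mean 3.10, limma adjusted p = 0.0028), and the linker histone genes Hist1h1e (2.57) and Hist1h1b (2.37) were among the 16. Transcripts of these genes are mostly made without a poly(A) tail, the libraries were primed with oligo-dT, and their sequences are close to each other, so reads could be split between them. Of 14 tubulin genes 4 were higher (Tuba1b, Tuba1c, Tubb4b and Tube1), with a median of 0.93. Of 18 genes of the Fanconi pathway and homologous recombination 4 were higher (Fancd2, Brca1, Rad54l and Trip13), with a median of 0.70. Over the 12397 genes outside the mitosis list 1.23% were higher and 0.0887% lower.

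Several rows of the matrix repeated others. Of the 164 called rows, 11 had a Pearson correlation over 0.9 with another row over the 261 cells. Of these, 3 were within 0.001 on the log2 scale of another row in every cell. ENSMUSG00000111220 repeated Kif11, and ENSMUSG00000110797 and Nek2 repeated each other. The others were Gm15452 with Cks2, Gm48445 with Rrm2, Gm15428 with Pclaf and Fam166a with Tubb4b. Counts of called genes include these rows.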
